A study of Mus musculus with 100 samples.

Results

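Chromatin at the loci of 9 scavenger and efferocytosis receptor genes was followed in mouse macrophages before and after Toll-like receptor 4 stimulation. The genes were Msr1, Marco, Mrc1, Cd163, Stab1, Scarb1, Mertk, Axl and Gas6, the last encoding a soluble ligand rather than a receptor. Every ChIP-seq region whose nearest transcription start site (TSS) belonged to 1 of these genes was taken, which gave 733 of 610301 regions over 15 tables. The rule used gene names and no measured value, but the 9 genes were picked with earlier results of these data known. Regions of different tables whose centres lay within 500 bp of a neighbour were treated as 1 site, so that the 733 regions fell on 134 sites, of which 34 occurred in 1 table and 5 in all 15. Sites are named by gene and distance from its TSS in kb, negative upstream.

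Bone marrow-derived macrophages (BMDMs) came from C57BL/6 mice aged 8 to 12 weeks. Wild type BMDMs received vehicle (Veh) or Kdo2 lipid A (KLA), a TLR4 agonist, for 6 h where a time is labelled (the p300 Veh libraries are labelled 0 h), and were assayed for NCoR, HDAC3, PGC1β, ERK1, p300, p65, Fosl2 and PU.1. PGC1β was also assayed with DMSO and Veh, DMSO and KLA, or the ERK inhibitor LY3214996 (ERKi) and KLA, and NCoR with ERKi and KLA, with no DMSO partner. H3K27ac, the acetylation of active enhancers and promoters, was assayed in NCoR flox/flox BMDMs without Cre (WT) or with LysM-Cre (NKO). A second H3K27ac experiment used wild type BMDMs with DMSO and Veh, DMSO and KLA, or the HDAC3 inhibitor RGFP966 and KLA, and a further one Pgc1b flox/flox BMDMs without Cre (flox) or with LysM-Cre (Cre). All groups of both knockout experiments carry floxed alleles, and LysM-Cre acts in myeloid cells at large. In osteoclast cultures, bone marrow cells labelled wild type were assayed for ERK1 and p300 at day 0 and at day 4 of differentiation, which the study induced with M-CSF and RANKL. The descriptions of both ERK1 day 0 libraries and of day 4 replicate 1 add NCoRWT, which that of day 4 replicate 2 lacks. Each group had 2 libraries, 70 in all, described as biological replicates. The other 30 samples are sonicated inputs, which were not used here, so no enrichment over input is given. Because cell populations were assayed in bulk, fewer cells carrying a mark and less of it per cell cannot be told apart.

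The libraries held 4.30 to 21.5 M tags (M, mega), and 2.79 to 52.8% of those tags lay in the regions of their table. The macrophage markers Csf1r, Adgre1, Cd68, Itgam and Lyz2 each had a region in all 15 tables. Of 3 fibroblast markers, 0 had a region in 10 tables, while at least 1 of 3 T cell, B cell or neutrophil markers had one in most tables. At least 4 of 5 osteoclast markers had a region in every table, the BMDM tables included. H3K27ac at the Ncor1 promoter in NKO cells (54.7 to 70.2 tags per 10 M library tags) was not below that in WT cells (44.8 to 51.7), but the deleted part lies elsewhere, so this mark checks no deletion. At the Ppargc1b promoter, which encodes PGC1β, H3K27ac was 51.6 and 49.9 in flox and 39.9 and 42.5 in Cre libraries with Veh, and 25.1 and 25.4 against 20.2 and 31.3 with KLA, so that the genotypes overlapped with KLA.

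Macrophages clear modified lipoproteins, glycoproteins, microbes and dying cells through dedicated surface receptors. Msr1 and Marco are class A scavenger receptors with a collagen-like stalk, Mrc1 is the mannose receptor, Cd163 takes up haemoglobin-haptoglobin complexes, Stab1 is an endocytic receptor of tissue macrophages and Scarb1 binds high-density lipoprotein. Mertk and Axl are receptor tyrosine kinases of the TAM family, which recognise phosphatidylserine on apoptotic cells through the bridging ligand Gas6. PU.1 is the lineage-determining factor that opens most macrophage enhancers, p65 and Fosl2 (an AP-1 member) arrive with inflammatory signals, p300 is an acetyltransferase, and NCoR with HDAC3 forms a corepressor complex that removes acetyl groups. PGC1β is a coactivator, and ERK1 is a kinase activated downstream of TLR4. The study reports that TLR4 signalling joins NCoR and HDAC3 to PGC1β in a coactivator complex that also holds p300.

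For 7 of the regions on which the results turn, the underlying reference DNA (GRCm38.p6, the plus strand, 5′ to 3′) is shown, because they cover the gaining sites, the losing sites and the sites that responded to a perturbation. They lie at chr8:39651827-39652076 (Msr1, intergenic), chr1:120527552-120527830 (Marco, intergenic), chr8:13503894-13504158 (Gas6, intergenic), chr6:124273184-124273483 (Cd163, intergenic, a 300 bp window), chr2:14231539-14231762 (Mrc1, intron), chr7:25776807-25777061 (Axl, intron) and chr14:31160585-31160804 (Stab1, annotated as intron and overlapping an exon of Stab1 and of Gm52148). Capitals mark matches, on either strand, to 6 letter patterns: PU.1 GAGGAAGT, AP-1 TGANTCA, NF-kB GGNNTTTCC, IRF GAANNGAAA, C/EBP TTGCNNAA and the nuclear receptor half-site AGGTCA. A match describes the letters and is not a measured site.
Msr1 at -9.2 kb: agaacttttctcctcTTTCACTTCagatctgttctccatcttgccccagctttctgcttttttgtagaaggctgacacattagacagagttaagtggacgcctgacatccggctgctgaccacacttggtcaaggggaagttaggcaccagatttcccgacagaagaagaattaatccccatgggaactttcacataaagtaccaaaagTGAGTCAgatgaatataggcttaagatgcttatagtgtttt
Marco at -22.6 kb: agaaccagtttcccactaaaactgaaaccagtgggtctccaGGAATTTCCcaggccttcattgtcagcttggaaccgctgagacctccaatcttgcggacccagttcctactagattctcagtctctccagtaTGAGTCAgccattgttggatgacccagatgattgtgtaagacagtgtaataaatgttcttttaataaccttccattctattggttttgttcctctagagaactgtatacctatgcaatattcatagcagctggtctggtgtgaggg
Gas6 at -9.5 kb: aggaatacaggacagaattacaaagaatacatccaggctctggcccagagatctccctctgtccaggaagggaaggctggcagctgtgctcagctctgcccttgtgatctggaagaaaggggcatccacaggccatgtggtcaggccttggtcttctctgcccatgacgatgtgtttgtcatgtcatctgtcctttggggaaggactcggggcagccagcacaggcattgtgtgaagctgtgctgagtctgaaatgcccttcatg
Cd163 at -31.3 kb: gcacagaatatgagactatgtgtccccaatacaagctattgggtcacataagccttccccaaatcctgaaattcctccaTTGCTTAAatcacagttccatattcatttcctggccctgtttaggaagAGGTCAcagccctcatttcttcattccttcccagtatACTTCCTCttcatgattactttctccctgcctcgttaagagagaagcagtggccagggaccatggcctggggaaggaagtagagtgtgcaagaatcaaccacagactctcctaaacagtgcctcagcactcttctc
Mrc1 at 2.2 kb: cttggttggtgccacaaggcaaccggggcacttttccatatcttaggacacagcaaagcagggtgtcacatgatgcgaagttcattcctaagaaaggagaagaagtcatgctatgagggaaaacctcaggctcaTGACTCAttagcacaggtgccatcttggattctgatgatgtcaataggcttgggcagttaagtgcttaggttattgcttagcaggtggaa
Axl at 11.8 kb: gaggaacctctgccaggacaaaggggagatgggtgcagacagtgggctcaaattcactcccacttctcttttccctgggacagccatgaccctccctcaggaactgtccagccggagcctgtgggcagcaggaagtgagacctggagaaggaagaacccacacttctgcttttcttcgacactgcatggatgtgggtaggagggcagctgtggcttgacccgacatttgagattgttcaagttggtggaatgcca
Stab1 at 8.0 kb: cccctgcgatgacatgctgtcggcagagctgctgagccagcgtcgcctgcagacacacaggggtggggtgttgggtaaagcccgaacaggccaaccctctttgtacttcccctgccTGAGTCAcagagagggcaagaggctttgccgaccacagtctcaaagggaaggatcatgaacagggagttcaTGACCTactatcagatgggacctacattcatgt
In the order of their capitals, Msr1 holds IRF and AP-1 patterns, Marco NF-kB and AP-1, Cd163 C/EBP, the half-site and PU.1, Mrc1 AP-1, and Stab1 AP-1 and the half-site. The Gas6 and Axl regions hold no match to these letters, and no match overlapped another.

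KLA moved binding at these loci in both directions. Values are tags per 10 M library tags, with the value of both libraries of a group given in replicate order, and fold changes are log2 values ± SE from edgeR. A region was called higher or lower at an adjusted p under 0.05 with more than a 2-fold change. Regions are peaks merged across conditions, and the sites named below include the called regions with the lowest p. Where their libraries are said not to overlap, this describes the values and adds no support to the call. Of 81 NCoR regions at the 9 loci, 16 were higher and 21 lower with KLA, against 23.4% and 16.7% of all NCoR regions. HDAC3, the enzyme that NCoR activates, was higher at 15 and lower at 14 of 58 regions (background 27.5% and 11.3%). PGC1β was higher at 10 and lower at 9 of 52 (background 16.4% and 6.35%). The member share of gains was 19.8% for NCoR, below that of all regions. It was 25.9% for HDAC3 and 19.2% for PGC1β, both near that of all regions. In the DMSO experiment the PGC1β share of gains was 13.6%, beside 16.4% of all regions. The share of losses was above that of all regions for all 3 factors. The median log2 change of the members was -0.26 for NCoR, -0.12 for HDAC3 and -0.39 for PGC1β, beside 0.10, 0.27 and 0.06 over all regions. Leaving out 1 library changed these counts: NCoR gave 5 higher and 14 lower without KLA replicate 1 and 6 and 12 without KLA replicate 2. HDAC3 gave 7 and 6 without Veh replicate 1 and 5 and 5 without Veh replicate 2, and PGC1β 2 and 3 without Veh replicate 1 and 7 and 1 without Veh replicate 2.

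Among the activating and lineage factors, p300 was higher at 31 and lower at 25 of 94 member regions (background 42.1% and 12.9%). p65 was higher at 41 and lower at 8 of 65 (background 57% and 5.43%). Fosl2 was higher at 8 and lower at 6 of 41 (background 11.4% and 4.19%), and ERK1 at 1 and 1 of 31 (background 10.3% and 2.53%). PU.1 was lower at 23 of 62 regions (background 21.7%) and edgeR called 0 higher (background 4.53%), with 8 higher at an unadjusted p under 0.05 and 4 by DESeq2. Scaling mattered here: TMM, which centres the bulk of regions, lowered log2 values by 0.52 for p300 and by 1.22 for p65 and raised those of PU.1 by 0.42. With TMM, 26 p300 regions were higher and 38 lower, 21 p65 regions higher and 15 lower, and 4 PU.1 regions higher and 14 lower. For HDAC3 the TMM counts were 15 and 21 and for Fosl2 10 and 11. Background shares, here and below, are those of all regions without TMM. They are not given with TMM, so counts with TMM have no background beside them. Leaving out p65 KLA replicate 1 left 22 higher and 0 lower, and KLA replicate 2 left 24 and 2. Fosl2 had no call left without either Veh library and 9 higher and 19 lower without KLA replicate 2, and ERK1 had 1 call without KLA replicate 1, the loss at Axl +11.8 kb, and 1 without KLA replicate 2, a gain at the Msr1 TSS that all 4 libraries together did not give.

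**Figure D1:**
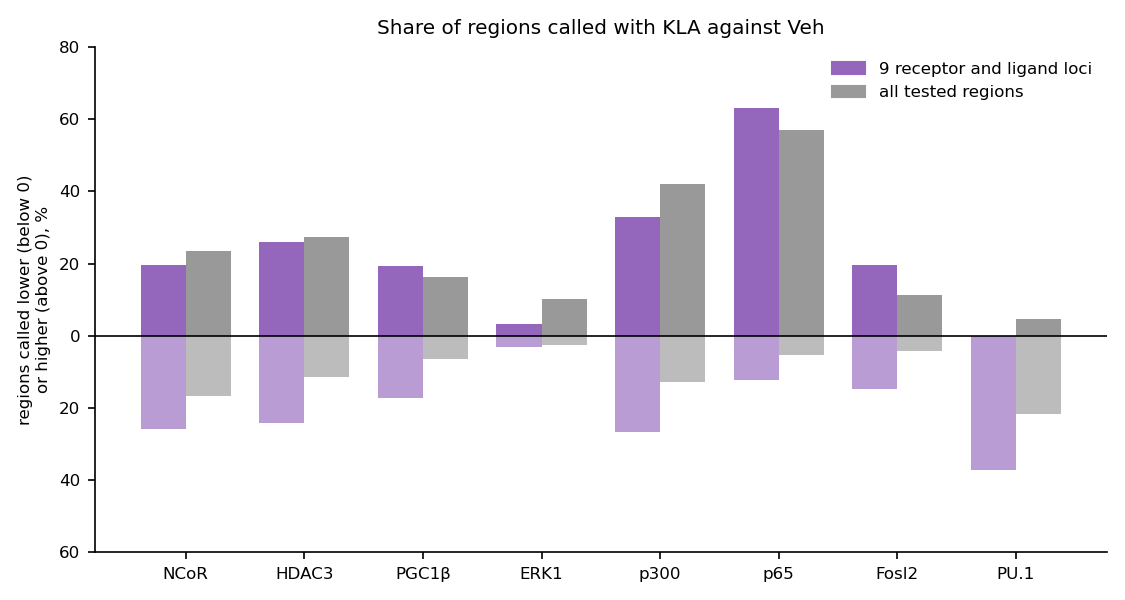
Share of regions called higher (above 0) and lower (below 0) with KLA, in percent of regions tested, for each of 8 factors, for the member loci and for all regions. The losing share of the members is above that of all regions for NCoR (25.9 and 16.7%) and p300 (26.6 and 12.9%), and their gaining share is below it for p300 (33.0 and 42.1%).

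The direction differed by gene. Over all regions of the 8 factors together, 26.6% of values were called higher and 11.1% lower. Summed over the 8 factors, 48 of 103 tested values were called higher at Msr1 (46.6%) and 38 of 49 at Marco (77.6%), or 44 and 34 with TMM. With each factor weighted as at the gene, all regions gave 27.7% for Msr1 and 34.7% for Marco, and the Msr1 sum includes 17 gains of p65 in 17 regions, a factor that rose at most regions. edgeR called 0 lower at either class A receptor gene, with 4 at Msr1 and 1 at Marco lower at an unadjusted p under 0.05, 1 and 0 by DESeq2 and 2 and 0 with TMM. At the ligand gene Gas6 23 of 29 were lower (79.3%, against 11.2% of all regions so weighted) and 0 higher, with 0 higher at an unadjusted p under 0.05, 0 by DESeq2 and 0 with TMM. Among the other scavenger receptor genes losses outnumbered gains, as 25 of 61 tested values were lower and 5 higher at Mrc1 (34 and 3 with TMM), 13 and 6 of 36 at Cd163 (13 and 4), 9 and 5 of 43 at Stab1 (13 and 3) and 10 and 2 of 58 at Scarb1 (15 and 1). The TAM receptor genes held both, with 21 and 13 of 79 at Mertk (24 and 9) and 6 and 5 of 26 at Axl (8 and 4). The share of losses at these 6 genes lay between 17.2 and 41%, and the weighted share of all regions between 11.1 and 12.3%. A site bound by several factors enters these sums once for each.

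**Figure D2:**
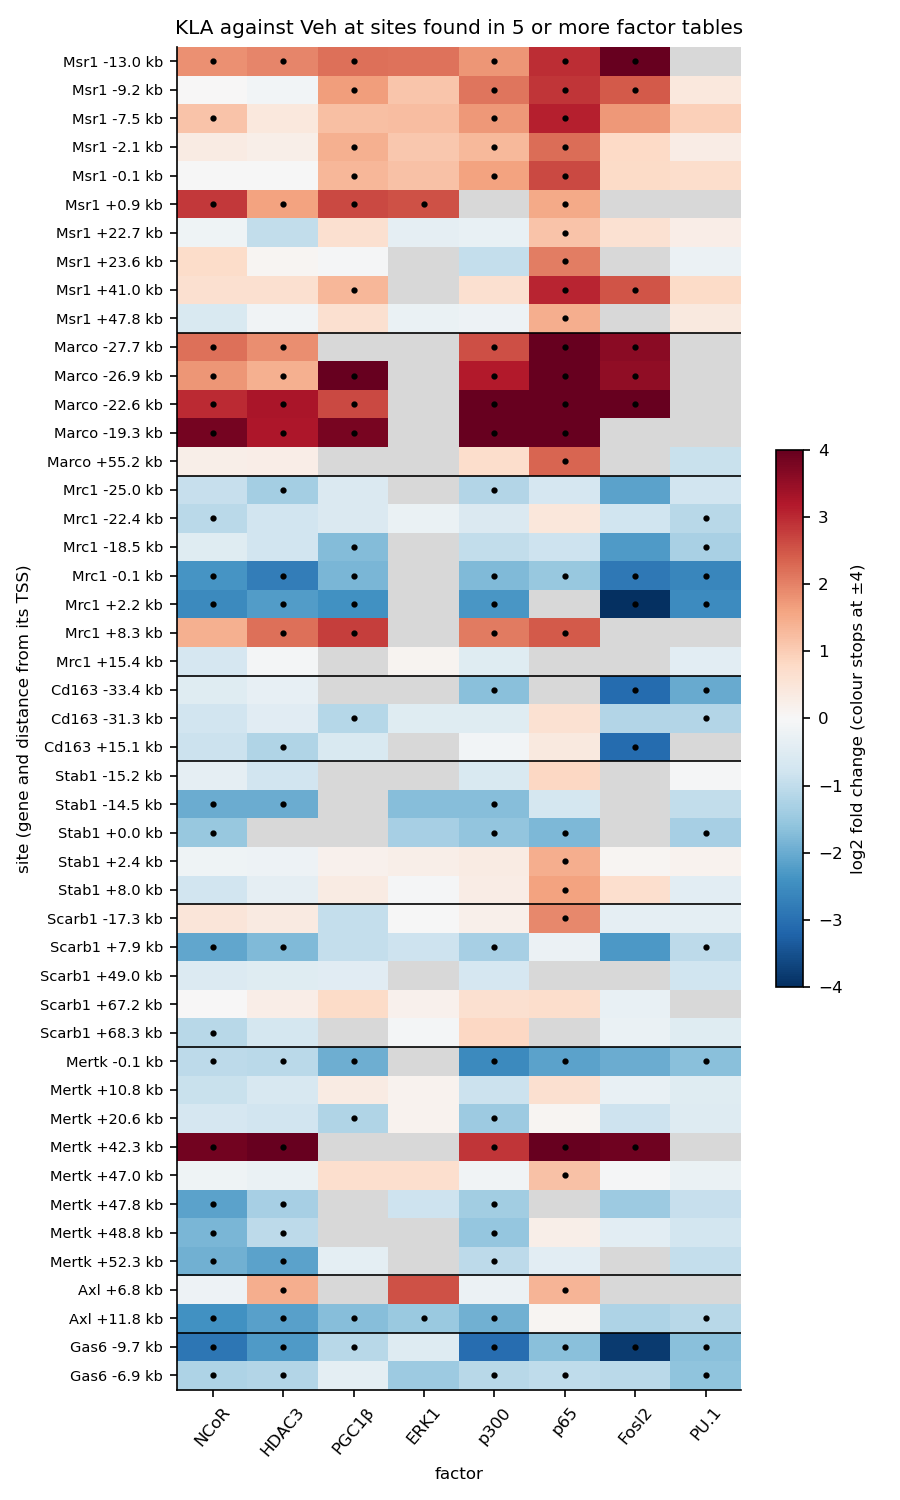
Log2 fold change, KLA against Veh, at the 47 member sites with a region in at least 5 of 8 factor tables, as colours limited to 4 in either direction, with sites in rows ordered by gene and factors in columns. Dots mark the 141 called values of 312, grey marks no region, and the rows of Msr1 and Marco are mostly gains while those of Gas6 are losses.

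Msr1, the prototype class A scavenger receptor, gained the inflammatory factors along its upstream flank. All 17 p65 regions of Msr1 were called higher (background 57%), as were 12 of 18 p300 regions (background 42.1%). With TMM 10 p65 and 10 p300 regions were called higher. At the upstream element 9.2 kb from the TSS, p300 measured 98.4 and 67 tags with Veh and 371 and 356 with KLA (log2 fold change 2.13 ± 0.18, adjusted p = 4.21e-08). p65 measured 38.5 and 69.9 with Veh and 403 and 384 with KLA there (log2 fold change 2.86 ± 0.26, adjusted p = 7.31e-06), and PGC1β 22.3 and 35.3 with Veh and 116 and 70.9 with KLA (log2 fold change 1.66 ± 0.35, adjusted p = 0.00191). For these 3 factors both KLA libraries lay above both Veh libraries, while the PGC1β call was lost without Veh replicate 1 (1.39). NCoR, by contrast, measured 133 and 208 with Veh and 178 and 168 with KLA, and HDAC3 223 and 185 with Veh and 157 and 225 with KLA. The groups overlapped for both and neither was called (adjusted p = 0.948 and adjusted p = 0.841). PU.1 went from 109 and 97.1 to 136 and 144, without overlap but short of a 2-fold change (log2 fold change 0.44 ± 0.12, adjusted p = 0.000874).

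NCoR and HDAC3 did rise at other Msr1 sites. At -13.0 kb NCoR measured 15.5 and 29.4 tags with Veh and 81 and 78.2 with KLA (log2 fold change 1.82 ± 0.37, adjusted p = 0.00288). HDAC3 rose there from 22.6 and 17.1 to 73.8 and 80.8 (log2 fold change 1.96 ± 0.44, adjusted p = 5.39e-05), and p300 from 24.4 and 24.3 to 89 and 78.4 (log2 fold change 1.78 ± 0.27, adjusted p = 2.81e-05). NCoR, HDAC3 and p300 thus gained at the same site, with no overlap of groups for any of them. The HDAC3 call was lost without Veh replicate 1 (2.16) or Veh replicate 2 (1.77). A site 0.9 kb downstream of the TSS held NCoR at 7.17 and 3.53 with Veh and 41.3 and 36 with KLA (log2 fold change 2.83 ± 0.55, adjusted p = 0.00226) and ERK1 at 4.72 and 6.94 with Veh and 28.3 and 42.2 with KLA (log2 fold change 2.54 ± 0.71, adjusted p = 0.0382). This was the 1 gain of ERK1 among the members. Neither call was firm: that of NCoR was lost without KLA replicate 1 (2.72) or KLA replicate 2 (2.92), and that of ERK1 without KLA replicate 1 (2.80), KLA replicate 2 (2.23) or Veh replicate 1 (2.31) and with TMM scaling (2.34). At the Msr1 TSS itself p300 rose from 91.5 and 92 to 277 and 283 (log2 fold change 1.61 ± 0.15, adjusted p = 2.55e-07), whereas NCoR stood at 217 and 267 with Veh and 257 and 226 with KLA, with overlapping groups.

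Marco, whose product binds bacteria and particles, had few tags before stimulation at some upstream sites and more at others, such as -27.7 kb, where p300 measured 25.1 and 19.7 with Veh. At -22.6 kb p300 measured 1.88 and 7.23 tags with Veh and 162 and 134 with KLA (log2 fold change 5.02 ± 0.36, adjusted p = 9.13e-09), and p65 7.88 and 2.80 with Veh and 128 and 93.7 with KLA (log2 fold change 4.34 ± 0.46, adjusted p = 1.97e-05). NCoR rose from 4.78 and 10.6 to 55.1 and 69.2 (log2 fold change 3.0 ± 0.48, adjusted p = 0.000825) and HDAC3 from 8.73 and 7.74 to 63.9 and 98.3 (log2 fold change 3.26 ± 0.49, adjusted p = 7.56e-10). Every KLA library exceeded every Veh library for all 4, and all 4 were also called with TMM. At -19.3 kb the p65 Veh libraries were both at 0, beside 61.4 and 84.8 with KLA. NCoR at that site went from 3.58 and 2.35 to 43.7 and 44.3 (log2 fold change 3.84 ± 0.58, adjusted p = 0.000585). Over the whole locus 11 of 14 p300 regions and 10 of 11 p65 regions (7 with TMM) were called higher (background 42.1% and 57%). So were 6 of 9 NCoR regions and 5 of 6 HDAC3 regions (background 23.4% and 27.5%). PU.1 had only 2 regions at Marco and edgeR called 0 of them (background 4.53% higher and 21.7% lower), with 1 lower at an unadjusted p under 0.05 and 0 called by DESeq2. With 2 regions this count does not set Marco apart from all regions.

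Mrc1, the mannose receptor gene, moved the other way around its TSS. At the intronic site 2.2 kb downstream NCoR measured 52.6 and 53 with Veh and 8.10 and 9.68 with KLA (log2 fold change -2.55 ± 0.44, adjusted p = 0.00117). p300 fell from 51.4 and 54.5 to 10.7 and 10.3 (log2 fold change -2.33 ± 0.36, adjusted p = 4.06e-05) and PU.1 from 46.5 and 38.6 to 5.23 and 9.56 (log2 fold change -2.52 ± 0.28, adjusted p = 1.81e-14). All KLA libraries were below all Veh libraries for these 3 factors. PU.1 at the TSS dropped from 194 and 187 to 26.2 and 35.7 (log2 fold change -2.62 ± 0.15, adjusted p = 3.56e-35), and NCoR there from 100.4 and 94.2 to 19.4 and 18.7 (log2 fold change -2.35 ± 0.32, adjusted p = 0.000353). PU.1 was called lower at 8 of 10 Mrc1 regions (background 21.7%), and at 5 with TMM. One Mrc1 site ran against this: at +8.3 kb HDAC3 rose from 11.6 and 7.19 to 42.8 and 43.9 (log2 fold change 2.21 ± 0.56, adjusted p = 0.000394) and p300 from 9.40 and 3.94 to 28.6 and 28.6 (log2 fold change 2.08 ± 0.50, adjusted p = 0.00174). The HDAC3 call at +8.3 kb was lost without Veh replicate 2 (1.89). The upstream Mrc1 sites between -18 and -26 kb lie within the neighbouring gene Tmem236, and their assignment to Mrc1 rests on the nearest TSS alone.

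Cd163, the haemoglobin scavenger receptor, lost p300 at 4 of 9 regions and gained it at 2 (background 12.9% and 42.1%). With TMM these counts were 5 and 1. At the intragenic site +17.0 kb p300 went from 30.1 and 28.3 to 5.63 and 6.49 (log2 fold change -2.26 ± 0.47, adjusted p = 0.000591). At the upstream site -31.3 kb PU.1 fell from 243 and 234 to 97.5 and 115 (log2 fold change -1.17 ± 0.11, adjusted p = 8.04e-20; -0.75 and uncalled with TMM). NCoR there read 649 and 699 with Veh and 432 and 367 with KLA, under a 2-fold change (log2 fold change -0.76 ± 0.16, adjusted p = 0.00376). Groups did not overlap at either site. At the neighbouring site -29.8 kb, NCoR rose from 14.3 and 18.8 to 75.3 and 55.3 (log2 fold change 1.97 ± 0.39, adjusted p = 0.00265) and HDAC3 from 18.2 and 12.2 to 71.5 and 49.2 (log2 fold change 2.03 ± 0.47, adjusted p = 9.43e-05). KLA libraries were above Veh libraries for both factors at -29.8 kb, with the calls lost without KLA replicate 1 (1.73) for NCoR and Veh replicate 2 (1.74) for HDAC3.

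Stab1 sites moved in both directions, upstream as well as within the gene. At -14.5 kb, which lies in the neighbouring gene Nisch, NCoR fell from 139 and 153 to 39.7 and 33.9 (log2 fold change -1.99 ± 0.26, adjusted p = 0.000295), and HDAC3 from 135 and 161 to 34.6 and 42.1 (log2 fold change -1.97 ± 0.39, adjusted p = 3.68e-06). The intragenic site at +8.0 kb gained p65, from 86.7 and 81.1 to 249.8 and 263 (log2 fold change 1.61 ± 0.21, adjusted p = 7.04e-05). Groups were apart in all 3 cases, but with TMM the p65 value was 0.38 and uncalled, and the HDAC3 call was lost without Veh replicate 2 (-1.83). At the Stab1 TSS p300 fell from 40.7 and 36.1 to 7.67 and 18.4 (log2 fold change -1.56 ± 0.43, adjusted p = 0.00472), a call lost without KLA replicate 1 (-1.06). p300 gains lay on either side, at -18.2 kb from 3.76 and 1.31 to 22 and 33.5 (log2 fold change 3.40 ± 0.60, adjusted p = 0.000143) and at +6.0 kb from 12.5 and 5.91 to 33.8 and 41.1 (log2 fold change 2.0 ± 0.44, adjusted p = 0.000951), and both were called with TMM and without any 1 library.

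Scarb1, the high-density lipoprotein receptor gene, had few called regions. Of 10 NCoR regions 3 were lower (background 16.7%), and of 11 PU.1 regions 3 (background 21.7%), or 2 with TMM. Intronic site +7.9 kb carried the clearest loss, with NCoR at 191 and 248 with Veh and 45.4 and 58.1 with KLA (log2 fold change -2.08 ± 0.24, adjusted p = 0.000176). p300 fell there from 110.3 and 74.3 to 44 and 29.7 (log2 fold change -1.32 ± 0.27, adjusted p = 0.00054) and HDAC3 from 260.4 and 213 to 49.2 and 96.6 (log2 fold change -1.76 ± 0.38, adjusted p = 2.3e-05). Every KLA library was below every Veh library, and the HDAC3 call was lost without Veh replicate 1 (-1.58) or Veh replicate 2 (-1.87). Of 9 p300 regions at this gene 1 was higher (background 42.1%). It lay at +35.6 kb and rose from 1.88 and 2.63 to 21 and 25.9 (log2 fold change 3.34 ± 0.60, adjusted p = 0.00015).

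Mertk, the main phagocytic TAM receptor of resting macrophages, lost factors at its TSS. p300 fell from 56.4 and 54.5 to 4.60 and 14.6 (log2 fold change -2.53 ± 0.43, adjusted p = 9.58e-05) and PU.1 from 92.6 and 104 to 25.5 and 36.3 (log2 fold change -1.66 ± 0.18, adjusted p = 1.27e-14). An intronic site at +42.3 kb did the reverse: HDAC3 rose from 5.82 and 5.53 to 90.3 and 211 (log2 fold change 4.67 ± 0.48, adjusted p = 2.45e-20). Losses at the TSS and gains at +42.3 kb each separated all KLA from all Veh libraries. NCoR at +42.3 kb rose from 7.17 and 4.71 to 85.9 and 89.9 (log2 fold change 3.86 ± 0.42, adjusted p = 0.000125), p65 from 3.50 and 2.80 to 96.8 and 84.8 (log2 fold change 4.80 ± 0.47, adjusted p = 1.03e-05) and p300 from 5.64 and 2.63 to 24.6 and 37.3 (log2 fold change 2.87 ± 0.54, adjusted p = 0.000232). Further into the gene, at +52.3 kb, HDAC3 fell from 175 and 159 to 27 and 52.7 (log2 fold change -2.16 ± 0.39, adjusted p = 4.5e-07) and NCoR from 103 and 171 to 42.9 and 29.7 (log2 fold change -1.92 ± 0.33, adjusted p = 0.00115). Of 16 NCoR regions at Mertk 2 were higher and 6 lower (background 23.4% and 16.7%), of which 1 higher and 4 lower lay within the gene.

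Axl, the TAM receptor associated with inflamed macrophages, had its most occupied NCoR site in an intron at +11.8 kb. NCoR measured 540.1 and 609.7 tags there with Veh and 113 and 101 with KLA (log2 fold change -2.42 ± 0.18, adjusted p = 3.07e-05). HDAC3 fell from 511 and 473 to 103 and 116 (log2 fold change -2.18 ± 0.41, adjusted p = 1.16e-06) and p300 from 152 and 137 to 45 and 30.8 (log2 fold change -1.93 ± 0.22, adjusted p = 2.03e-06). ERK1 fell from 142 and 86.7 to 52.9 and 27.2 (log2 fold change -1.49 ± 0.43, adjusted p = 0.0411), the 1 ERK1 loss among the members. All 4 factors were lower in every KLA library than in any Veh library. Removing a library ended the HDAC3 call without Veh replicate 1 (-2.12) and the ERK1 call without KLA replicate 2 (-1.10) or Veh replicate 1 (-1.10). p65 stood at 56.9 and 51.3 with Veh and 48.8 and 65 with KLA (log2 fold change 0.07 ± 0.32, adjusted p = 0.854), and its direction depends on the scaling, the TMM value being -1.16. HDAC3 rose at +6.5 kb in the same gene, from 7.27 and 13.8 to 45.1 and 45.7 (log2 fold change 2.07 ± 0.54, adjusted p = 0.000564), a call lost without Veh replicate 1 (1.71).

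Gas6, which bridges TAM receptors to apoptotic cells, lost every factor that had a called region. A pair of adjacent peaks lies 9.5 and 9.9 kb upstream. At -9.9 kb NCoR measured 130.2 and 151 with Veh and 21.9 and 15.9 with KLA (log2 fold change -2.90 ± 0.30, adjusted p = 0.000106), and p300 103 and 76.9 with Veh and 14.3 and 7.03 with KLA (log2 fold change -3.06 ± 0.34, adjusted p = 1.35e-06). HDAC3 fell from 140.4 and 132 to 27.5 and 29.9 (log2 fold change -2.25 ± 0.40, adjusted p = 2.71e-07) and PU.1 from 96.7 and 95.2 to 30.1 and 30.0 (log2 fold change -1.67 ± 0.19, adjusted p = 8.86e-15). No KLA library reached the lower Veh library for any of these 4. At -9.5 kb the PU.1 values were 61 and 53.5 with Veh and 10.5 and 10.8 with KLA (log2 fold change -2.42 ± 0.26, adjusted p = 1.26e-15) and those of NCoR 127 and 106 with Veh and 21.1 and 8.30 with KLA (log2 fold change -3.0 ± 0.40, adjusted p = 0.000335). Counted over the locus, p300 was lower at 6 of 6 regions, PU.1 at 5 of 5, NCoR and HDAC3 at all 3 of theirs and p65 at all 3, with the same counts under TMM. The lower share of all regions was 12.9% for p300, 21.7% for PU.1, 16.7% for NCoR, 11.3% for HDAC3 and 5.43% for p65. p65 went from 74.4 and 78.3 to 21.4 and 26 at -9.7 kb (log2 fold change -1.69 ± 0.34, adjusted p = 0.00129), a call lost without KLA replicate 1 (-1.55).

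**Figure D3:**
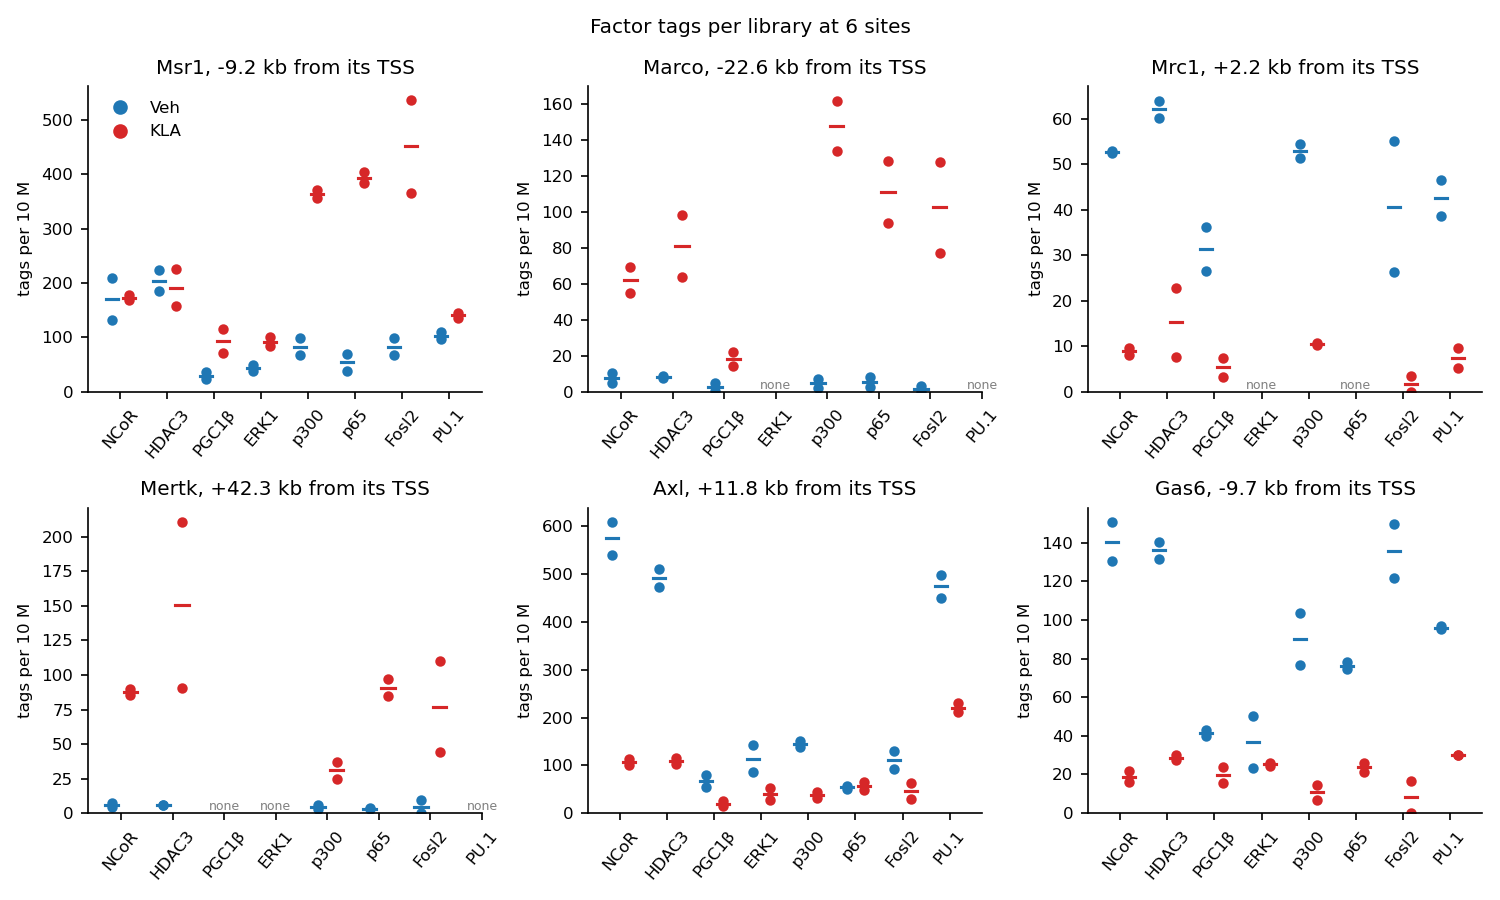
Tags per 10 M of 8 factors at 6 member sites, with points for libraries (Veh blue, KLA red), lines for the mean of the 2 libraries and the word none where a factor has no region. p300 at Marco -22.6 kb lies at 134 and 162 with KLA against 7.23 and 1.88 with Veh, while NCoR at Axl +11.8 kb lies at 113 and 101 against 540.1 and 609.7.

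H3K27ac was counted on accessible regions, 17 of them at the member loci in the NKO experiment and 23 in each of the others. In DMSO-treated wild type BMDMs KLA raised H3K27ac at 7 and lowered it at 5 of 21 tested member regions (background 6.73% higher and 28.1% lower). Pgc1b flox cells gave 7 higher and 4 lower of 21 (background 5.22% and 25.6%), and WT cells of the NKO experiment 2 and 1 of 12 (background 6.49% and 3.72%). All gains lay at Msr1 and Marco in the 3 experiments. A loss at Gas6 occurred in each, the sole one in WT cells, beside losses at Cd163 -31.3 and +17.0 kb, Mertk -0.6 kb and Mrc1 +4.8 kb with DMSO and at both Cd163 sites and Scarb1 -17.3 kb in flox cells. With TMM the flox counts were 8 and 2.

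At Msr1 -9.2 kb the DMSO experiment measured 73.9 and 83.7 tags with Veh and 548 and 491 with KLA (log2 fold change 2.72 ± 0.22, adjusted p = 2.41e-33). Pgc1b flox cells went from 125 and 109 to 386 and 432 (log2 fold change 1.79 ± 0.12, adjusted p = 2.52e-48), and WT cells of the NKO experiment from 12 and 9.17 to 45.3 and 46.9 (log2 fold change 2.13 ± 0.36, adjusted p = 2.42e-05). The gain separated the groups in each experiment, although the levels themselves come from regions of different width and are not comparable. Marco -27.7 kb rose from 9.14 and 8.72 to 117 and 74.1 with DMSO (log2 fold change 3.41 ± 0.34, adjusted p = 1.48e-22). Gas6 -9.7 kb fell in turn, from 323 and 313 to 49.9 and 45.4 with DMSO (log2 fold change -2.73 ± 0.24, adjusted p = 1.06e-28), from 278 and 253 to 46.5 and 39.7 in flox cells (log2 fold change -2.62 ± 0.16, adjusted p = 6.57e-54) and from 80.7 and 92.2 to 21.4 and 20.0 in WT cells (log2 fold change -2.06 ± 0.28, adjusted p = 3.5e-07). At Gas6 acetylation, p300, NCoR and HDAC3 were thus all lower with KLA at the same place. Cd163 +17.0 kb showed the largest H3K27ac loss of the members with DMSO, from 140.4 and 112 to 11 and 15.1 (log2 fold change -3.28 ± 0.30, adjusted p = 1.34e-25), and Mertk -0.6 kb, in the overlapping gene Gm39931, fell from 90.5 and 77.6 to 20.7 and 21 (log2 fold change -2.01 ± 0.29, adjusted p = 6.81e-11).

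NCoR deficiency was tested on the same marks. With KLA, NKO cells had 1 member region higher and 2 lower than with Veh, of 12 (background 2.75% and 7.96%; 2 and 1 with TMM). Between genotypes with Veh, 1 region was higher in NKO (background 0.973%) and edgeR called 0 lower (background 0.027%, 0 at an unadjusted p under 0.05, 0 by DESeq2). With KLA 1 was lower in NKO (background 0.389%), and edgeR called 0 higher (background 0.4%, 0 at an unadjusted p under 0.05, 0 by DESeq2). The response to KLA differed at 1 region, in the lower direction (background 0.67%), and edgeR called 0 in the higher direction (background 0.027%, 0 at an unadjusted p under 0.05, 0 by DESeq2). TMM and DESeq2 each called 0 regions between genotypes with Veh and 0 in the response test. The region involved was Stab1 +8.0 kb, where WT went from 30.3 and 21.9 with Veh to 40.2 and 61.4 with KLA and NKO from 65.6 and 50.5 to 32.4 and 21.5. NKO thus started above WT and ended below it, with a difference of responses of -2.05 ± 0.44 (adjusted p = 0.0132). That call did not hold without NKO KLA replicate 2 (-1.80), NKO Veh replicate 1 (-1.85), WT KLA replicate 2 (-1.72), WT Veh replicate 1 (-2.29) or WT Veh replicate 2 (-1.82), nor the NKO excess with Veh (log2 fold change 1.16 ± 0.31, adjusted p = 0.0383) without NKO Veh replicate 1 (0.96), WT Veh replicate 1 (1.40) or WT Veh replicate 2 (0.93). Gas6 -9.7 kb in NKO fell from 102 and 75.5 to 7.43 and 4.86 (log2 fold change -3.79 ± 0.34, adjusted p = 1.38e-11) and lay below WT with KLA (log2 fold change -1.71 ± 0.40, adjusted p = 0.0177). No KLA library of NKO reached the level of either WT library, yet the call was lost without NKO KLA replicate 1 (-2.07), NKO KLA replicate 2 (-1.47), WT KLA replicate 1 (-1.66) or WT KLA replicate 2 (-1.75). At Msr1 -9.2 kb, the other gain of WT cells, NKO went from 24.3 and 23.8 to 45.1 and 48.6 (log2 fold change 0.96 ± 0.33, adjusted p = 0.0421), under the 2-fold threshold but called with TMM (1.16) and DESeq2 (1.15), with a difference of responses of -1.17 ± 0.49 (adjusted p = 0.271) that did not pass the test. Marco -27.7 kb rose in both genotypes, in NKO from 17.7 and 23.8 to 54.7 and 54.2 (log2 fold change 1.38 ± 0.32, adjusted p = 0.00172), with a difference of responses of -0.14 ± 0.45 (adjusted p = 0.924).

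HDAC3 inhibition was compared with DMSO in the presence of KLA, and both contrasts of this experiment share the DMSO KLA libraries. RGFP966 raised H3K27ac at 5 of 21 member regions (23.8%, background 26.9%), and edgeR called 0 lower (background 9.53%, 5 at an unadjusted p under 0.05, 2 by DESeq2). The share of gains is close to that of all regions, as is the median log2 change (0.47 for the members, 0.39 for all regions). The 5 regions belonged to Cd163, Mrc1 and Axl. TMM gave 4 higher and 2 lower. Cd163 -31.3 kb read 73.9 and 79.4 with DMSO and Veh, 23.3 and 18.5 with DMSO and KLA and 138 and 103 with RGFP966 and KLA (log2 fold change 2.50 ± 0.28, adjusted p = 4.16e-17). Cd163 +17.0 kb read 140.4 and 112, 11 and 15.1 and 76.4 and 58.3 in the same order (log2 fold change 2.38 ± 0.31, adjusted p = 1.81e-12). The inhibitor libraries exceeded the DMSO KLA libraries at both sites, passing the Veh level at -31.3 kb and staying below it at +17.0 kb. Mrc1 +4.8 kb read 43.2 and 45.4, 25.9 and 8.41 and 65.8 and 63 (log2 fold change 1.84 ± 0.30, adjusted p = 1.59e-08), and Axl +11.8 kb 86.4 and 94.2, 73.8 and 47.1 and 187 and 158 (log2 fold change 1.49 ± 0.23, adjusted p = 2.94e-09). Both rose above their Veh values. Mrc1 -22.4 kb was called too (log2 fold change 1.21 ± 0.21, adjusted p = 1.32e-07), but not without WT DMSO KLA replicate 2 (0.99) and not with TMM (0.86). Gas6 -9.7 kb behaved otherwise, with RGFP966 values of 84.3 and 63.7 against 49.9 and 45.4 (log2 fold change 0.63 ± 0.25, adjusted p = 0.0221), above DMSO but far below the Veh libraries. Msr1 -9.2 kb, where KLA had raised the mark, read 312 and 259 with the inhibitor, below both DMSO KLA libraries and under 2-fold (log2 fold change -0.87 ± 0.19, adjusted p = 3.01e-05). Msr1 -7.5 kb, also raised by KLA, was lower with the inhibitor too, again under 2-fold (log2 fold change -0.75 ± 0.19, adjusted p = 0.000293). These sites had the lowest log2 values of this contrast among the 21 member regions. TMM, which gave 2 lower calls, shifted log2 values of this contrast by -0.34, which widens such differences.

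PGC1β deficiency was examined in Pgc1b flox and Cre cells, whose contrasts share libraries. Cre cells responded to KLA with 3 member regions higher and 8 lower of 21 (background 4.18% and 32.5%; 8 and 3 with TMM). With Veh, edgeR called 0 regions higher and 0 lower in Cre than in flox cells (background 0.107% and 0.29%), with 1 and 3 at an unadjusted p under 0.05 and 0 by DESeq2. With KLA 6 were lower in Cre (background 6.81%) and edgeR called 0 higher (background 0.702%, 1 at an unadjusted p under 0.05, 1 by DESeq2). TMM gave 1 higher and 3 lower with KLA. The response itself differed at 3 regions, all lower in Cre (background 4.6%), and edgeR called 0 in the other direction (background 0.77%, 0 at an unadjusted p under 0.05, 0 by DESeq2).

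Stab1 carried the largest difference between the genotypes. At +8.0 kb flox cells measured 203 and 208 tags with Veh and 282 and 239 with KLA, and Cre cells 206 and 202 with Veh and 74.4 and 61.9 with KLA. The genotypes were level with Veh and apart with KLA (log2 fold change -1.94 ± 0.14, adjusted p = 7.24e-39), and the difference of responses was -1.93 ± 0.19 (adjusted p = 1.11e-21). At +2.4 kb flox cells went from 349 and 373 to 307 and 305 and Cre cells from 405 and 339.6 to 119.9 and 112 (difference of responses -1.45 ± 0.14, adjusted p = 1.15e-20). Flox libraries overlapped neither Cre library with KLA at either site, and both response calls held with TMM and without any 1 library. Within genotypes KLA changed the +8.0 kb site by 0.34 ± 0.12 in flox cells (adjusted p = 0.00662) and by -1.59 ± 0.14 in Cre cells (adjusted p = 3.9e-26; -0.97 and uncalled with TMM).

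At Msr1 -9.2 and -13.0 kb H3K27ac with KLA was lower in Cre than in flox libraries. TMM raised log2 values of this contrast by 0.39, which narrows such differences. At -9.2 kb Cre cells rose from 95.4 and 88.9 to 215 and 206 (log2 fold change 1.19 ± 0.13, adjusted p = 3.38e-18), against 386 and 432 in flox cells with KLA. The Cre and flox KLA libraries did not overlap, with a difference under 2-fold (log2 fold change -0.96 ± 0.11, adjusted p = 1.37e-16; responses -0.60 ± 0.18, adjusted p = 0.00666). At -13.0 kb flox cells rose from 15.1 and 13.9 to 61.8 and 67.6 (log2 fold change 2.15 ± 0.32, adjusted p = 2.27e-10) and Cre cells went from 13.7 and 11.9 to 15.9 and 27.4 (log2 fold change 0.76 ± 0.37, adjusted p = 0.0651). Cre KLA libraries lay below flox KLA libraries (log2 fold change -1.57 ± 0.31, adjusted p = 3.29e-06). The difference of responses at -13.0 kb, -1.39 ± 0.50 (adjusted p = 0.0348), was not called without Pgc1b flox Cre KLA replicate 1 (-1.06), Pgc1b flox Cre Veh replicate 1 (-1.28), Pgc1b flox Cre Veh replicate 2 (-1.48), Pgc1b flox KLA replicate 1 (-1.45), Pgc1b flox KLA replicate 2 (-1.32), Pgc1b flox Veh replicate 1 (-1.46) or Pgc1b flox Veh replicate 2 (-1.33), nor with TMM (-1.20). Gas6 -9.7 kb fell in Cre cells as well, from 258 and 182 to 27.4 and 23.4 (log2 fold change -3.11 ± 0.18, adjusted p = 1.45e-57).

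**Figure D4:**
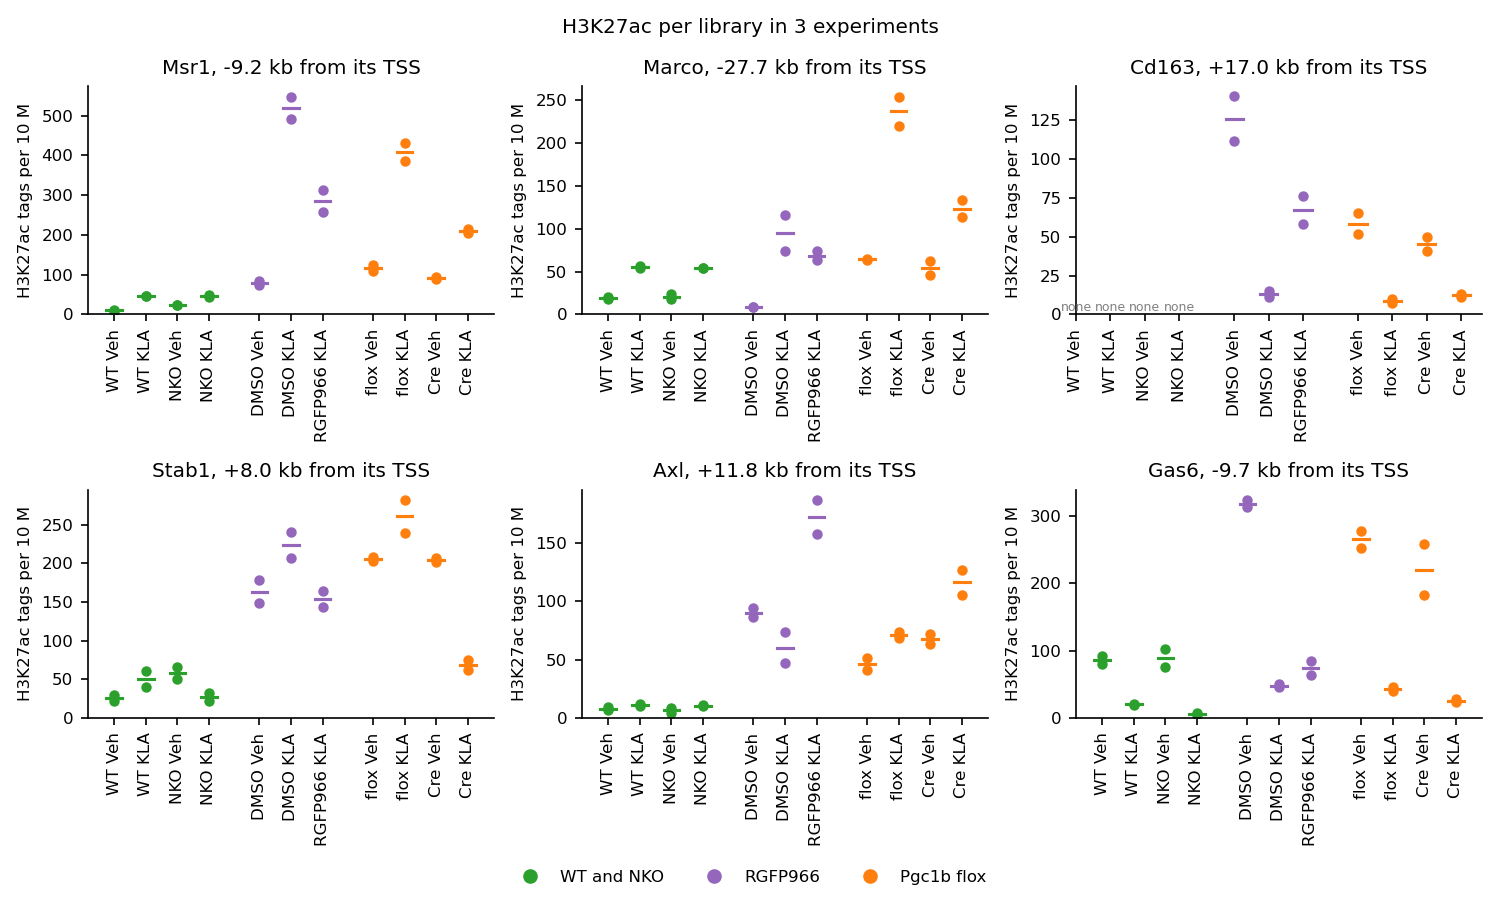
H3K27ac tags per 10 M at 6 member sites in 3 experiments (colours), with points for libraries, lines for the mean of the 2 libraries of a group and groups along the horizontal axis. At Stab1 +8.0 kb the Pgc1b Cre libraries with KLA lie at 74.4 and 61.9 against 282 and 239 in flox, and at Cd163 +17.0 kb the RGFP966 libraries lie at 76.4 and 58.3 against 11 and 15.1 with DMSO and KLA.

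ERK inhibition was applied together with KLA. PGC1β in DMSO-treated cells rose with KLA at 8 and fell at 2 of 59 member regions (background 16.4% and 1.23%; 6 and 4 with TMM). Without DMSO Veh replicate 1 the counts were 3 and 0, and without DMSO KLA replicate 2 they were 5 and 0. Mertk +42.3 kb rose from 2.44 and 7.29 with DMSO and Veh to 37.5 and 59.5 with DMSO and KLA (log2 fold change 3.41 ± 0.76, adjusted p = 0.00253), a call lost without DMSO Veh replicate 1 (2.71). ERKi then left PGC1β at that site at 31.3 and 31 (log2 fold change -0.64 ± 0.64, adjusted p = 0.68). ERKi lowered PGC1β at 1 member region (background 0.178%) and edgeR called 0 higher (background 0.108%, 2 at an unadjusted p under 0.05, 0 by DESeq2). The region was Stab1 +3.9 kb, with 53.3 and 25.3 in the DMSO KLA libraries and 0 in both ERKi libraries, and it was not called without any 1 of those 4 libraries or with TMM.

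NCoR under ERKi was lower than under KLA alone at 51 of 81 member regions (background 48.6%), and edgeR called 0 higher (background 0.634%, 1 at an unadjusted p under 0.05, 5 by DESeq2). This share is close to that of all regions, whose median shifted by -1.20. With TMM the counts were 3 higher and 5 lower, and without KLA replicate 1 or KLA replicate 2 they were 26 and 31 lower. The ERKi libraries bear another date than the KLA libraries and have no DMSO partner, so the inhibitor, its solvent and the date cannot be told apart. At Marco -22.6 kb ERKi libraries read 2.54 and 21.5 against 55.1 and 69.2 with KLA alone (log2 fold change -2.36 ± 0.64, adjusted p = 0.00811), a call lost without KLA replicate 1 (-2.51) or KLA replicate 2 (-2.19) and with TMM (-1.19). Without TMM all 9 Marco and 13 of 16 Msr1 regions were called lower, 9 of 16 at Mertk and all 3 at Gas6, beside 48.6% of all regions. TMM raised log2 values of this contrast by 1.16 and left 5 lower calls among all 81 member regions. The counts by gene therefore do not separate these loci from the shift of all regions. Axl had 0 of 4 called by edgeR, 0 lower at an unadjusted p under 0.05 and 2 higher by DESeq2. Its +11.8 kb site, where NCoR was lower with KLA than with Veh, read 139 and 119.8 with ERKi and 115 and 104 with KLA alone in the slightly different region of this table (log2 fold change 0.25 ± 0.19, adjusted p = 0.26).

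In osteoclast cultures 23 member regions were tested for each factor. p300 was higher at day 4 than at day 0 at 14 of them (background 62.2%) and edgeR called 0 lower (background 0.248%, 0 at an unadjusted p under 0.05, 0 by DESeq2). The median of the members rose by 1.72 and that of all p300 regions by 1.84, and TMM called 0. Without day 4 replicate 1 or replicate 2 the count was 2. The Msr1 TSS went from 7.91 and 6.39 to 59.7 and 30.6 (log2 fold change 2.60 ± 0.66, adjusted p = 0.00553) and Stab1 +8.0 kb from 27.3 and 17 to 98.8 and 71.5 (log2 fold change 1.87 ± 0.44, adjusted p = 0.00349). Day 4 libraries exceeded day 0 libraries at both, and both calls were lost with TMM (0.99 and 0.25) and without Day4 replicate 1 (2.06 and 1.65). ERK1 was higher at 1 region (background 2.33%), Mrc1 +15.5 kb, and edgeR called 0 lower (background 0.0267%, 0 at an unadjusted p under 0.05, 0 by DESeq2). That call was lost without day 4 replicate 1 or 2 and under TMM or DESeq2, and no Marco region was present in either osteoclast table.

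Other genes of the same pathways give a frame for these counts. Of 14 further scavenger and lectin receptor genes (such as Cd36, Olr1 and Lrp1), p300 was higher at 22 and lower at 15 of 83 regions, NCoR at 13 and 22 of 75, HDAC3 at 17 and 17 of 72, and PU.1 at 4 and 22 of 72. Of 15 further efferocytosis genes (such as Mfge8, Tyro3 and Elmo1), p300 was higher at 45 and lower at 22 of 129, NCoR at 19 and 31 of 108, HDAC3 at 23 and 23 of 104, and PU.1 at 1 and 20 of 102. Over all regions NCoR was higher at 23.4% and lower at 16.7%, and HDAC3 at 27.5% and 11.3%. For p300 these shares were 42.1% and 12.9%, and for PU.1 4.53% and 21.7%. The scavenger list gave 17.3% and 29.3% for NCoR and 23.6% and 23.6% for HDAC3. The efferocytosis list gave 17.6% and 28.7% for NCoR and 22.1% and 22.1% for HDAC3. For both proteins gains lay below and losses above the share of all regions, which was not tested. With DMSO, H3K27ac was higher with KLA at 0 and lower at 5 of 20 regions of the scavenger list and at 2 and 14 of 36 of the efferocytosis list, beside 6.73% and 28.1% of all regions. With KLA, H3K27ac was lower in Pgc1b Cre than in flox cells at 9 of 21 scavenger and 1 of 37 efferocytosis regions (background 6.81%). The KLA response was lower in Cre at 8 of 21 and 0 of 37 (background 4.6%), beside 3 of 21 member regions. Each contrast had 0 scavenger and 1 efferocytosis region higher in Cre.

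The letter patterns shown above were counted in 300 bp windows around the centres of all 67990 p300 regions on named chromosomes. NF-kB letters GGNNTTTCC occurred in 9.13% of all windows, in 19.4% of the 31 member regions with higher p300 and in 4.0% of the 25 with lower p300. AP-1 letters TGANTCA occurred in 25.7%, 29.0% and 12.0% in the same order, and PU.1 letters GAGGAAGT in 11%, 3.23% and 12.0%. IRF letters occurred in 14.8%, 12.9% and 16%, C/EBP letters in 21.4%, 32.3% and 16%, and the half-site in 19.3%, 19.4% and 20.0%. Counts behind the member shares are small, down to 1 region, and the shares are given as descriptions without a test. Both strands were searched, and the patterns say nothing of which factor is bound.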

How the data were processed

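Single-end ChIP-seq libraries (formaldehyde cross-linking for H3K27ac, disuccinimidyl glutarate and formaldehyde for the factors) were aligned by the authors to mm10 with Bowtie2, and peaks were called with HOMER, filtered by IDR and merged across conditions. The deposited values are raw tag counts per merged region with no normalization, and library totals were read from the file headers. Tool versions are not given in the sources used here. Factor regions were peaks of the factor itself. H3K27ac was counted on accessible regions, in windows of 1 kb in 2 of 3 experiments, and a region belongs to the gene with the nearest TSS. All 733 member regions had the distance to the TSS of GRCm38.p6 (RefSeq) that the files state, within 10 bp.

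Counts were tested with edgeR 4.0.16 (R 4.3.3; quasi-likelihood test, Benjamini-Hochberg adjustment over all regions of a table) with header totals as library sizes, 1 fit per table and 25 comparisons. Regions with at least 4 tags (factors) or 16 tags (H3K27ac) in 1 library were kept. SEs are the log2 fold change divided by the square root of F. Alternatives were TMM scaling, the DESeq2 1.42.0 Wald test, no filter, the replicate number as a block and each library left out. The method was tested on simulated data. Libraries held 4.30 to 21.5 M tags, which limits regions with few tags. Replicates differed by more than counting error (chi-square per degree of freedom 1.36 to 12.0 over 37 pairs), so none was counted as a repeat of another. Values per library are tags per 10 M.

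The member genes and pathway lists were chosen with earlier results of these data known. The regions named are, for each gene and table, the region nearest the TSS within 2 kb and the region with most tags, for each comparison the called member region with the lowest p in each direction, and the same places, within 500 bp, in the other tables. Motif letters were counted with Python 3.11.15, and the sequence of 1 further region is not reported here. Inputs (30 samples) were not analysed. The second ERK1 day 4 library is described as replicate 3 and bears another date.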

Additional observations from a re-analysis of the deposited data

Results flagged for a closer look

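At 4 member regions the response of H3K27ac to KLA differed between genotypes by an interaction term (edgeR, adjusted p over all regions of the table). At Stab1 +8.0 kb the NKO response was lower than that of WT by a log2 difference of -2.05 (adjusted p = 0.0132), the sole difference of this kind among 12 regions, and it was not called with TMM or DESeq2. At the same Stab1 site the response of Pgc1b flox Cre cells was lower than that of Pgc1b flox cells by -1.93 (adjusted p = 1.11e-21), and at Stab1 +2.4 kb by -1.45 (adjusted p = 1.15e-20). At Msr1 -13.0 kb the Pgc1b difference was -1.39 (adjusted p = 0.0348), which was not called with TMM or without most single libraries. In each case both libraries of the deficient genotype lay below both libraries of the other genotype with KLA, and 3 of 21 member regions differed in the Pgc1b design against 4.6% of all regions.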

How the results depend on the processing

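Of 640 values of named regions, 276 were called. TMM scaling kept the side of the threshold and the direction of 522 and DESeq2 of 520, with 75 and 79 calls lost and 8 reversals each. No filter left 639 as they were. Counts of called member regions that moved by more than 1.5 times were, for ERK1 with KLA, 2 against 1 with TMM or DESeq2, for NCoR with ERKi 51 against 8 with TMM and 12 with DESeq2, for p300 at day 4 14 against 0 with either, and for ERK1 at day 4 and H3K27ac of NKO against WT with Veh 1 against 0 with either. The NKO response difference (1) became 0 with either and 2 without a filter, and PGC1β with ERKi (1) became 0 with TMM. The cause of these shifts was not tested.

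Leaving out 1 library gave counts from 18 to 47 for NCoR, 10 to 31 for HDAC3, 5 to 22 for PGC1β, 1 to 3 for ERK1, 41 to 56 for p300, 22 to 51 for p65, 0 to 28 for Fosl2 and 22 to 25 for PU.1 with KLA. The ranges were 3 to 10 for PGC1β with DMSO, 0 to 0 for PGC1β with ERKi, 26 to 44 for NCoR with ERKi, 0 to 1 for ERK1 and 2 to 16 for p300 at day 4. For H3K27ac they were 3 to 4 in WT, 2 to 3 in NKO, 0 to 1 (Veh) and 0 to 0 (KLA) between them and 0 to 2 for their response, 11 to 14 with DMSO, 4 to 6 with RGFP966, 10 to 12 in flox, 11 to 11 in Cre, 0 to 0 (Veh) and 5 to 7 (KLA) between them and 2 to 3 for their response. Fits without 1 library assume that the lone library of a group varies like the others.

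Directions reversed with TMM or DESeq2 at p65 regions Mertk +20.6 kb (-1.14 and -1.11), Mertk +47.0 kb (-0.056 and -0.023) and Axl +11.8 kb (-1.16 and -1.13), and at NCoR regions with ERKi: Stab1 +8.0 kb (0.11 and 0.12), Mrc1 -22.4 kb (0.032 and 0.046), Scarb1 +67.2 kb (0.0092 and 0.022), Cd163 -31.3 kb (0.13 and 0.14) and, with DESeq2, Msr1 -9.2 kb (0.0014). With TMM p300 at Msr1 -7.5 kb reversed at day 4 (-0.074).

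No pairing by replicate number was seen in the counts. The 31 correlations between groups of the difference of replicate 1 and replicate 2 lay between -0.027 and 0.026. This cannot exclude that same-numbered libraries share a preparation. With the replicate number as a block, 322 member regions were called over all comparisons against 363 without it, Fosl2 with KLA gave 5 of 14, p300 at day 4 gave 7 of 14 and PGC1β with ERKi 0 of 1, and the other 22 of 25 counts stayed within 1.5 times. Shallow tables limit regions with few tags.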

Other observations

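Fosl2, an AP-1 member, and PGC1β were also measured at the sites described above, and all values below are tags per 10 M with log2 fold changes from edgeR. At Msr1 -13.0 kb Fosl2 rose from 1.41 and 7.34 with Veh to 90.8 and 66.6 with KLA (log2 fold change 4.05 ± 1.03, adjusted p = 0.00155). At Gas6 -9.9 kb it fell from 149.5 and 122 to 0 and 16.4 (log2 fold change -3.83 ± 0.92, adjusted p = 0.000753), and at Mrc1 +2.2 kb from 55 and 26.2 to 0 and 3.51 (log2 fold change -4.13 ± 1.25, adjusted p = 0.0101). Fosl2 thus moved in the direction of p300 at each of these sites, with no overlap of Veh and KLA libraries. None of the 3 calls held without Veh replicate 1 (3.39, -3.72 and -3.61) or Veh replicate 2 (5.62, -4.01 and -4.65).

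PGC1β rose at 6 of 12 Msr1 regions and 3 of 4 Marco regions, and fell at 3 of 6 Mrc1 regions (background 16.4% higher and 6.35% lower). At Msr1 -13.0 kb it went from 12.9 and 8.37 to 47 and 50.3 (log2 fold change 2.20 ± 0.42, adjusted p = 0.00091), a call lost without Veh replicate 2 (1.91). At Axl +11.8 kb it fell from 54.1 and 80.4 to 14.2 and 25.2 (log2 fold change -1.72 ± 0.38, adjusted p = 0.00299), a call lost without Veh replicate 2 (-1.41). The PGC1β changes at both sites had the sign of the NCoR changes there, and the groups did not overlap. In the DMSO experiment PGC1β at Msr1 -13.0 kb averaged 16.1 with Veh and 67.3 with KLA (SD 2.03 and 2.53). At Axl +11.8 kb it averaged 73.1 with DMSO and Veh and 55.9 with DMSO and KLA (SD 2.34 and 15.9), a smaller fall.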
